A study of Mus musculus with 2 samples.

Results

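The Gimap cluster is a run of 8 neighbouring genes on mouse chromosome 6, Gimap8, Gimap9, Gimap4, Gimap6, Gimap7, Gimap1, Gimap5 and Gimap3 in order along the mm10 build. They were chosen by name, as 8 of the 21951 protein-coding genes of the GENCODE vM21 basic annotation, and were examined in a window from 20 kb before the first to 20 kb after the last of them (chr6:48627234-48790851, 163618 bp). The assay was DNase-seq, in which the ends left by the enzyme DNase I in nuclei are sequenced, so that cuts accumulate where chromatin is accessible. The tissue was thymus, where T cells mature, from aged B6CASTF1/J females of 18 to 20 months; this hybrid carries one B6 and one CAST genome. The 2 libraries form 1 group, replicates 1 and 2. The labels give them one donor record but different biosample records and do not say whether separate animals were used, so their spread may be technical. No other age, sex, tissue or treatment was compared, so no difference between conditions was tested, and values are given as descriptions. The 2 parental alleles were not separated in the files, and sequences printed here are those of the B6 reference.

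GIMAP proteins are GTPases of immunity-associated proteins, most of which sit on the surfaces of membranes inside lymphocytes. They are best known for keeping T cells alive after they leave the thymus. Loss of Gimap5 causes a shortage of lymphocytes in rats and mice, and Gimap1 is needed for mature T and B cells in mice. Several of them are known to increase as thymocytes mature.

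In the thymus libraries, 5 of the 8 Gimap genes had an open promoter in both replicates. They were Gimap8, Gimap9, Gimap7, Gimap1 and Gimap5. Gimap3 and Gimap6 had only weak peaks at their start sites, and Gimap4 had none. A promoter peak is a peak overlapping 1 kb on either side of any annotated start site, in the shorter of the 2 peak lists deposited for each library, called the main list below. The share of 62.5% stands beside 53.5% of all protein-coding genes (11753 of 21951), so it is near the background. In the longer list 7 of the 8 genes, or 87.5%, had a promoter peak in both libraries, beside 58% of all protein-coding genes (12736 of 21951). By mean signal, the strongest accessible site shared by both libraries was not a promoter peak of a Gimap gene. It was centred 5984 bp before the start of Gimap1.

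**Figure D1:**
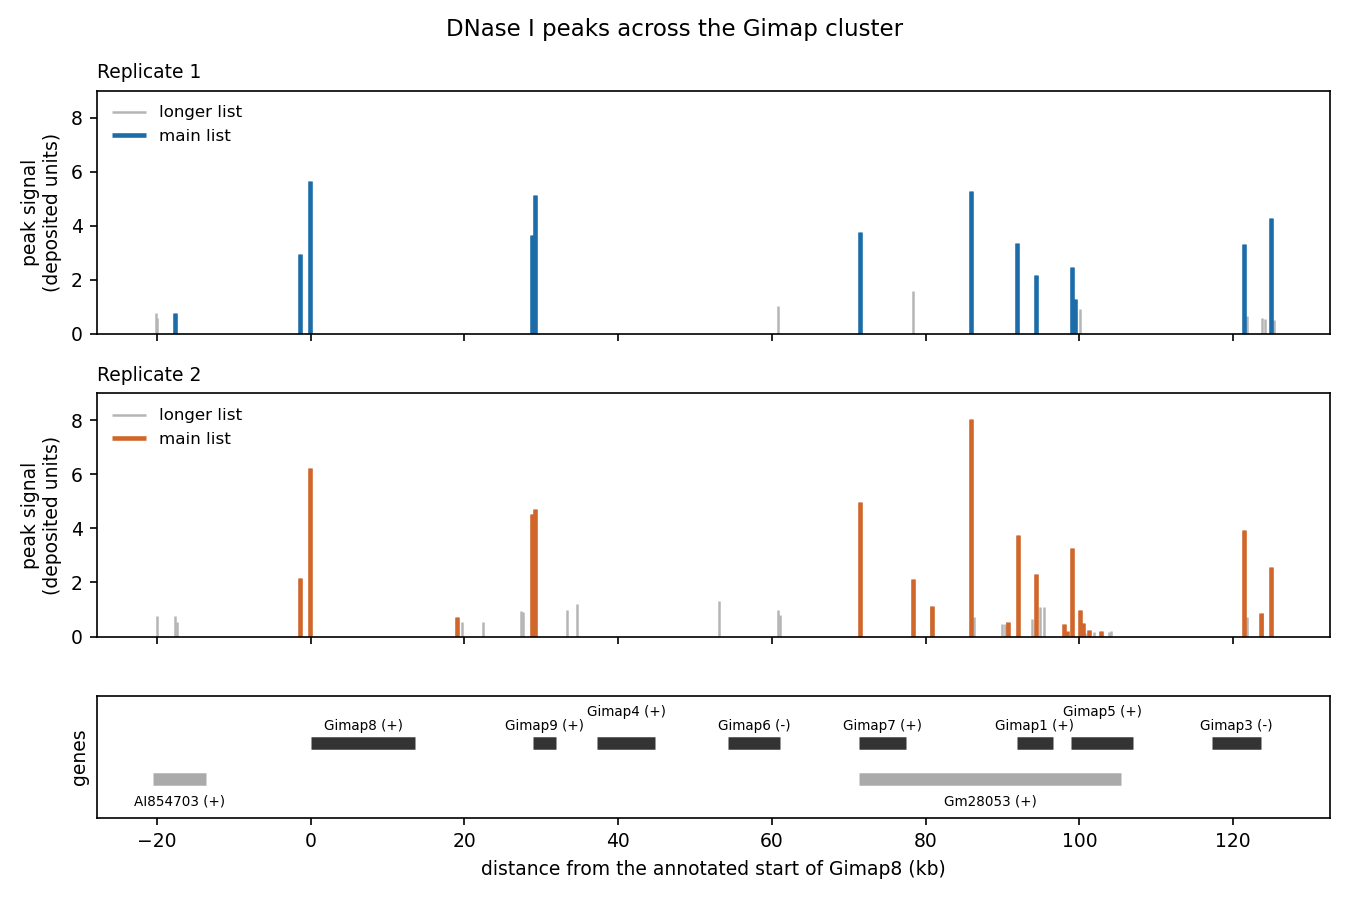
Height of each DNase I peak (signal in deposited units, vertical axis) against distance from the annotated start of Gimap8 (kb, horizontal axis), with replicate 1 in the upper panel and replicate 2 in the middle panel. Coloured lines are peaks of the main list, grey lines are peaks of the longer list, and dark bars below are the 8 Gimap genes with their strand, with Gm28053 and AI854703 in grey. Gimap4 lies in a stretch of 42040 bp without a main-list peak, and the tallest line in replicate 2 is the site before Gimap1 at 8.04.

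The sequences of 5 stretches show what the results below turn on. They are the strongest shared site of the window, the outermost shared site at each end of the cluster, the promoter with the highest signal, and, for contrast, the bases before the start of Gimap4, where no peak was called. All are mm10 sequence written 5′ to 3′, and capitals mark bases that lay in a footprint of both libraries. A footprint is a short stretch inside accessible DNA that was cut less than its surroundings, as the authors called it.
Site before Gimap1 (chr6:48732921-48733220, plus strand, the central 300 bases of the peak): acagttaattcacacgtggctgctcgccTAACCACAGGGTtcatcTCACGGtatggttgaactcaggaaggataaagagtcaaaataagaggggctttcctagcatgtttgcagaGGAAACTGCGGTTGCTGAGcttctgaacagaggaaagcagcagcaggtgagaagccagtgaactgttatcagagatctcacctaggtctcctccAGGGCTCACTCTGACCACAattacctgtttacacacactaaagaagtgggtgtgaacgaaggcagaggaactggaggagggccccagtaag
Site before Gimap8 (chr6:48645741-48645940, plus strand): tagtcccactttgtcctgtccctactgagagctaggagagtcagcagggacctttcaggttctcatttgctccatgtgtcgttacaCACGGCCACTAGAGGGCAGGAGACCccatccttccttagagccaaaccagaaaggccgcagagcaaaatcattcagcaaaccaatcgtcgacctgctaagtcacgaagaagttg
Site before Gimap3 (chr6:48772061-48772320, minus strand): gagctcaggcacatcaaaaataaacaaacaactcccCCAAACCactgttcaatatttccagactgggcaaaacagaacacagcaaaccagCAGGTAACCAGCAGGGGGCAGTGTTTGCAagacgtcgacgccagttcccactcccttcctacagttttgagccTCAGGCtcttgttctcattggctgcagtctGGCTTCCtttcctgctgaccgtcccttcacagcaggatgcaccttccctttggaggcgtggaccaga
Gimap8 promoter peak up to the start site (chr6:48647121-48647233, plus strand): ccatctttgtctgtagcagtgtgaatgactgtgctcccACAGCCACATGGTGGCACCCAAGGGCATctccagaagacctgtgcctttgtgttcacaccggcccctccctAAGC
Bases before the start of Gimap4 (chr6:48684299-48684548, plus strand): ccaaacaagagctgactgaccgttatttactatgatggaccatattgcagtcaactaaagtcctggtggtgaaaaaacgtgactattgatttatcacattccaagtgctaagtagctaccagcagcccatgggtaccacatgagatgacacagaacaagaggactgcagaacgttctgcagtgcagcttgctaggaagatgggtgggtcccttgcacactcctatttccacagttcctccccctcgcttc

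Gimap8 encodes a long family member with several GTPase domains. Its promoter peak (chr6:48647121-48647280) had a signal of 5.66 in replicate 1 and 6.24 in replicate 2, with a mean of 5.95 ± 0.409 (SD, n = 2). Signals are given in the deposited units, whose scale is not stated. This was the highest promoter signal of the cluster in both libraries. It stood at percentile 52.8 among the protein-coding genes with a promoter peak in both libraries, so the strongest Gimap promoter was close to the middle of open promoters in the tissue. The peak had the same borders in both libraries. The capitals of the Gimap8 sequence above show the 2 footprints they shared in it, the second only up to the start site.

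Gimap9 had a pair of peaks at its start site, with the same borders in both libraries. The stronger one (chr6:48676261-48676460), inside the gene, had signals of 5.12 and 4.73 in replicates 1 and 2, with a mean of 4.92 ± 0.275 (SD, n = 2; percentile 44.3). The other (chr6:48675921-48676140), over the start itself, had 3.65 and 4.53. The signal at the start was thus the lower of the pair in both libraries. The 2 peaks held 8 pairs of overlapping footprints between the libraries.

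Gimap7, whose human counterpart acts on the GTPase activity of other GIMAP proteins, had promoter signals of 3.77 and 4.96 in replicates 1 and 2 (chr6:48718501-48718780; mean 4.37 ± 0.846, SD, n = 2; percentile 39.3). The same peak covers the start of Gm28053, a protein-coding gene model that runs from there into Gimap5, so the peak cannot be assigned to one of the pair.

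Gimap1 had promoter signals of 3.36 and 3.77 in replicates 1 and 2, with a mean of 3.57 ± 0.287 (SD, n = 2; percentile 31.7). The signals were close but the widths were not. The peak was 380 bp wide in replicate 1 (chr6:48738981-48739360) and 80 bp in replicate 2 (chr6:48739161-48739240), where it did not reach the start site, 107 bp away. Transcripts of Gm28053 start in the same stretch, and the antisense RNA gene Gimap1os overlaps it. A further shared peak with signals of 2.16 and 2.33 (chr6:48741381-48741660 in replicate 2) was centred in an exon of Gimap1. In replicate 2 it also covered the start of Gimap1os. The main-list peak of replicate 1 (chr6:48741450-48741616) did not reach that start, but its longer-list peak did. Within 1 kb of that start in both libraries, it is also a promoter peak of the antisense gene.

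Gimap5, which in mouse T cells has been linked to the control of the kinase Gsk3b, had promoter signals of 2.48 and 3.29 in replicates 1 and 2 (mean 2.88 ± 0.572, SD, n = 2; percentile 25.0). Of the 5 promoters open in both libraries it had the lowest signal in each.

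Gimap3 is known for a role in the tissue-specific segregation of mitochondrial DNA, mapped in crosses of laboratory mice with CAST. It had no promoter peak in the main list of replicate 1 and one of 0.874 in replicate 2. In the longer list its signals were 0.582 and 0.874. In replicate 1 the main-list peak nearest the most upstream start of Gimap3 was 1250 bp away, outside the promoter window, with a signal of 4.30. Gimap6, which binds the autophagy protein Gabarapl2, had no promoter peak in either main list, and 1.02 and 0.978 in the longer lists of replicates 1 and 2. The deposited q-value, a false discovery rate per run of bases, reached no lower than 0.0221 in replicate 1 and 0.0091 in replicate 2 at the Gimap6 promoter. At the 5 open promoters its lowest value was 1.07e-08 or less in each library.

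Gimap4, which modulates the death of T cells, had no peak in its gene body or promoter window in any of the 4 lists and no footprint. Only 0 and 3 bp of its promoter window carried a q-value in replicates 1 and 2, with a lowest value of 0.0463. The nearest main-list peak was 8089 bp from its start, at Gimap9. The gap around it without a main-list peak ran from the stronger Gimap9 peak to the Gimap7 peak and had the same length of 42040 bp in both libraries. In the longer lists the gap was 31514 bp in replicate 1 and 18286 bp in replicate 2. Of the windows of 32 bases that start in its promoter window, 84.9% occur once in the genome. The share was 89.5% at Gimap6, 92.1% at the open Gimap9 promoter and 100% at Gimap5. Over the Gimap4 gene body it was 98.9%. Whether unmapped reads add to the gap was not tested.

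**Figure D2:**
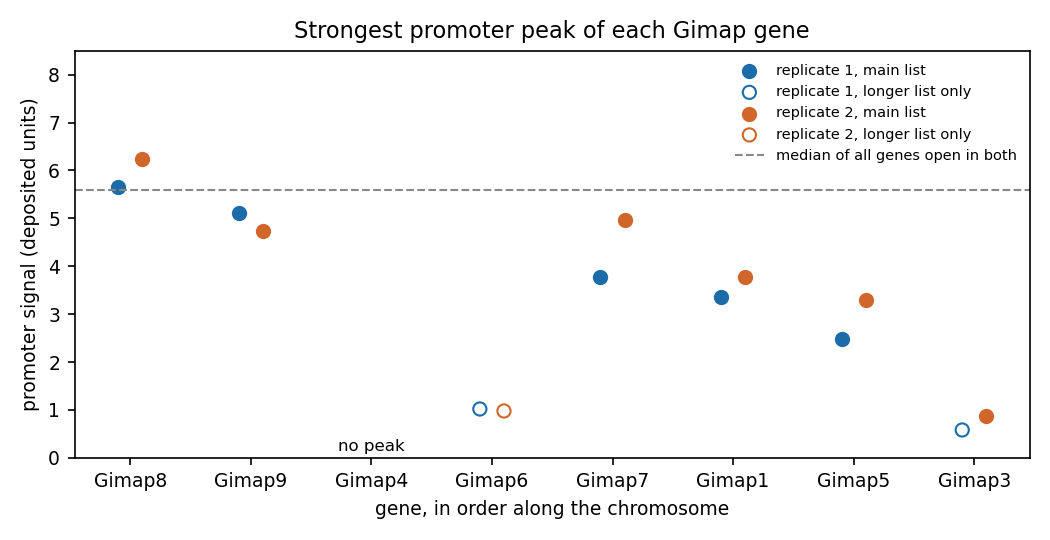
Signal of the strongest promoter peak (deposited units, vertical axis) of each Gimap gene (horizontal axis, in chromosome order) in replicate 1 (blue) and replicate 2 (orange). Filled points are main-list peaks, open points are peaks found only in the longer list, and the dashed line is the median of 5.59 over all genes with a main-list promoter peak in both libraries. Gimap8 lies above the line in both libraries, the other 4 open promoters lie below it, and Gimap4 has no point.

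The order of mean promoter signals was Gimap8, Gimap9, Gimap7, Gimap1 and Gimap5, followed in the longer list by Gimap6 and Gimap3. Gimap8 did not overlap Gimap9 between libraries, nor did Gimap1 overlap Gimap5. Gimap9 and Gimap7 overlapped and changed places between the libraries. Gimap7 and Gimap1 also overlapped, since both had 3.77 in one library, replicate 1 for Gimap7 and replicate 2 for Gimap1. The median of the 5 open Gimap promoters was 4.37, against 5.59 over all 11753 genes open in both libraries. Each library's signals came in whole multiples of a single step (tolerance 0.1 steps). The 5 promoters held 277 to 633 steps in replicate 1 and 504 to 957 in replicate 2. If a step were 1 independent cut, their counting error would be 3.97% to 6.01% in replicate 1 and 3.23% to 4.45% in replicate 2. The depth itself is unknown.

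The site before Gimap1 (chr6:48732901-48733240) had a signal of 5.27 in replicate 1 and 8.04 in replicate 2, with a mean of 6.66 ± 1.96 (SD, n = 2). It lay in an intron of Gm28053, between Gimap7 and Gimap1, and had the same borders in both libraries. Its signal stood at percentile 85.0 of all main-list peaks in replicate 1 and 92.8 in replicate 2. In replicate 1 the Gimap8 promoter was higher, at 5.66, so the first place of this site rests on replicate 2. The libraries shared 4 footprints in it.

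Those 4 footprints are the capitals of its sequence. The core letters of a site for RUNX factors, which direct T cell development, are TGTGGT or TGCGGT on either strand. They occurred 3 times in the printed sequence, and each of the 3 matches lay wholly in capitals. They were TGTGGT on the minus strand at chr6:48732951-48732956 and chr6:48733143-48733148, and TGCGGT on the plus strand at chr6:48733042-48733047. The middle one follows a match to the ETS letters, AGGAAA at chr6:48733035-48733040, of which 5 of 6 bases lay in the common footprint. Windows of 300 bp centred on peaks held 3 or more RUNX core matches at 0.673% of all main-list peaks in replicate 1 and 0.844% in replicate 2. These letters were chosen after the footprint sequences had been seen, and a match is no evidence that a factor binds.

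The remaining shared sites outside Gimap promoters lay at the ends of the cluster and in Gimap3. The site before Gimap8 (chr6:48645741-48645940), centred 1394 bp from its start, had signals of 2.95 and 2.17 in replicates 1 and 2. The site before Gimap3 (chr6:48772061-48772320), centred 1339 bp from its start, had 4.30 and 2.58. A site centred in an intron of Gimap3 (chr6:48768581-48768800) had 3.31 and 3.95, above the 0.582 and 0.874 at the most upstream start of Gimap3. The stretch of this site outside exons of protein-coding genes was chr6:48768581-48768736. The site was centred 2161 bp from that start. It lay upstream of the other annotated start of Gimap3, outside the promoter window of either start. The pseudogene Gm44262 and the noncoding genes Gm44226 and 4833403J16Rik, which also lie in the window, held no peak of any list. Replicate 2 had a main-list peak of 0.718 within 1 kb of the start of Gm44262, where replicate 1 had none.

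Each end site held 1 match to the core letters of CTCF, a factor that marks the ends of chromatin loops. Before Gimap8 the match was CCACTAGAGGG on the plus strand at chr6:48645832-48645842, inside a common footprint of 25 bp. Before Gimap3 it was CCAGCAGGGGG on the minus strand at chr6:48772213-48772223, inside a common footprint of 29 bp, the longest run of capitals in the printed site. The matches thus faced each other across 126370 bp that hold all 8 genes. Whether the end sites meet in a loop was not tested. The letters searched for the first match were a wider form chosen after the footprints had been seen. That form occurred in 23.1% and 9.09% of 200-bp windows on the Gimap peaks of replicates 1 and 2, against 25.0% and 18.8% of those on all main-list peaks, so a match alone is common. Matches were placed only in the shared sites outside exons of protein-coding genes and in the bases before Gimap4 and Gimap6. A further match there, at the Gimap5 promoter, had no base in a footprint of both libraries. Over the whole window, 3 footprints of replicate 1 and 4 of replicate 2, extended by 5 bp, held the wider form. These were 4.84% and 3.45%, against 5.89% and 4.27% of all footprints. Footprints other than those of the end sites thus also held it.

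The number of sites in the window differed between the libraries. Replicate 1 had 13 main-list peaks in the window and replicate 2 had 22. The longer lists held 22 and 44, and the footprint lists 62 and 116. Across the genome the libraries had similar totals, with 50648 and 49872 main-list peaks, 77453 and 79004 longer-list peaks, and 223227 and 247677 footprints in replicates 1 and 2. Main-list peaks thus stood at 7.95 and 13.4 per 100 kb in the Gimap window, against 1.86 and 1.83 per 100 kb over all chromosomes. Of 16647 windows of the same length across the genome, 5.27% held at least as many peaks in replicate 1 and 1.30% in replicate 2. The Gimap window was laid around adjoining genes, and 7 of its 13 peaks and 10 of its 22 were promoter peaks. The other windows were not matched for genes, so the part of gene density was not tested. Depth was not stated, and its part in the difference was not tested.

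Most of the additional peaks of replicate 2 had low signals. The libraries shared 11 peaks, which were 84.6% of those in replicate 1 and 50% of those in replicate 2, against 79.4% and 80.7% of all main-list peaks. The 11 peaks of replicate 2 without a partner had a median signal of 0.548, against a median of 1.43 over all main-list peaks of that library. The strongest of them (chr6:48725521-48725740), in an intron of Gm28053, had 2.14, at percentile 65.9, and overlapped a longer-list peak of 1.57 in replicate 1. The 11 shared peaks of replicate 2 ranged from 2.17 to 8.04. The 2 unshared peaks of replicate 1 had 0.778 and 1.27, one in the neighbouring gene AI854703 and one in Gimap5, and its shared peaks ranged from 2.16 to 5.66. In both libraries every shared peak of the window was thus stronger than every unshared one. Of the footprints, 62.9% of those in replicate 1 and 31.9% of those in replicate 2 overlapped one of the other library, against 57.0% and 51.4% genome-wide.

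**Figure D3:**
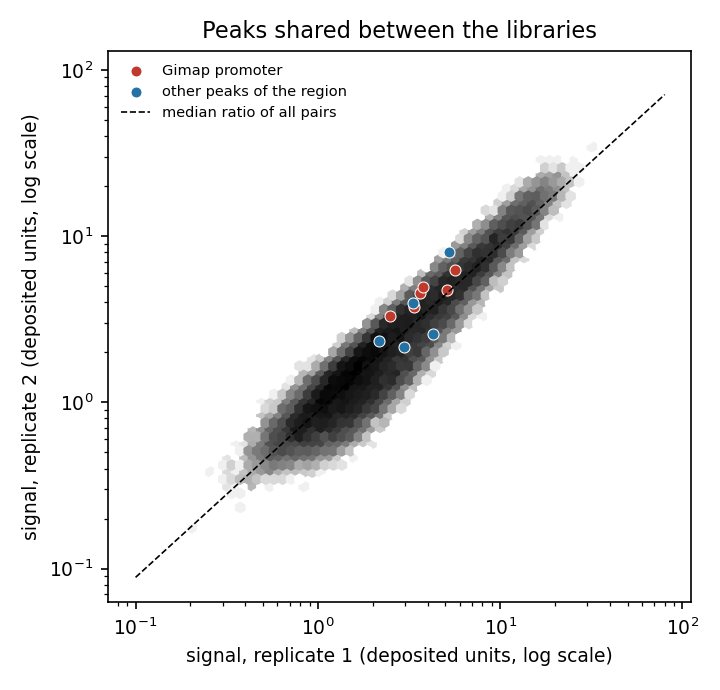
Signal in replicate 2 (vertical axis) against replicate 1 (horizontal axis), both in deposited units on log scales, for the 37494 main-list peaks that pair 1 to 1 between the libraries (grey, darker where more peaks fall) and the 11 pairs of the Gimap window (red for promoters, blue for other peaks). The dashed line is the median ratio of all pairs; 9 of the 11 Gimap pairs lie above it, and the highest is the site before Gimap1 at 5.27 and 8.04.

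At the 11 shared peaks the log2 ratio of replicate 2 over replicate 1, after the median of -0.17 over all 37494 pairs was subtracted, had a median of 0.34. It ranged from -0.56 at the site before Gimap3 to 0.78 at the site before Gimap1, and 9 of the 11 were positive. The 2 negative pairs were the end sites with the CTCF letters. Among all pairs, the central 95% ran from -0.99 to 0.69, so the site before Gimap1 lay outside that range and the other 10 lay within it. With 2 libraries a ratio cannot be tested against the spread between replicates.

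Gimap5 held 5 of the 9 main-list peaks by which replicate 2 exceeded replicate 1. Its gene and promoter window together had 7 in replicate 2 and 2 in replicate 1. Other than the promoter peak itself, the 6 peaks of replicate 2 at Gimap5 had signals from 0.196 to 0.998. Of these 6 peaks, 4 lay within one unbroken stretch of bases with a q-value, 2739 bp long (chr6:48745158-48747896), where the stretch in replicate 1 was 780 bp long (chr6:48746002-48746781). Of 143481 such stretches in replicate 2, 210, or 0.146%, were as long or longer. The median length was only 28 bp. In replicate 1, 7.02% of 131706 stretches were at least as long as the one of 780 bp, with a median of 43 bp. The stretches at Gimap5 were picked after the data had been seen, so these ranks are descriptions only. All 2001 bp of the Gimap5 promoter window carried a q-value in replicate 2, against 816 bp in replicate 1. The lowest q-value there was 4.19e-123 in replicate 2 and 2.87e-11 in replicate 1.

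The order of q-values did not always follow that of signals. In replicate 2 the site before Gimap1 reached 8.04 and its lowest q-value was 2.35e-56. The Gimap5 promoter was weaker there, at 3.29, yet had the lower q-value, 4.19e-123. In replicate 1 this pair was not reversed. The stronger site before Gimap1 (5.27) also had the lower q-value, 7.71e-17, and the Gimap5 promoter (2.48) had 2.87e-11. Every window of 32 bases that starts in the Gimap5 promoter window occurs once in the genome. Over the whole Gimap window, 4.01% and 8.75% of bases carried a q-value in replicates 1 and 2, against 0.991% and 1.03% of the genome.

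**Figure D4:**
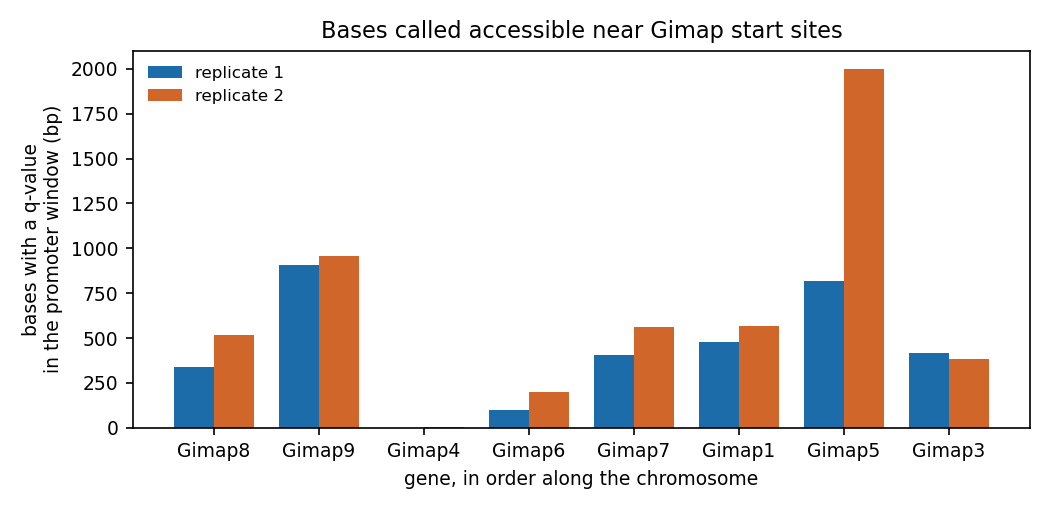
Number of bases with a q-value (vertical axis, bp) in the promoter window of each Gimap gene (horizontal axis, chromosome order) in replicate 1 (blue) and replicate 2 (orange). The windows span 1 kb on either side of all start sites and are 2001 to 4002 bp long; Gimap5 in replicate 2 is covered in full at 2001 bp, and Gimap4 has 0 and 3 bp.

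The letters of ETS factors, a family with many members in lymphocytes (GGAA with A or C before it and A or G after it, on either strand), were frequent in the window. They occurred in 12 of 13 windows of 200 bp on the Gimap peaks of replicate 1 (92.3%) and 19 of 22 of replicate 2 (86.4%), against 55.2% and 57.4% of all peaks. The 300-bp RefSeq promoters of all 8 Gimap genes held them, against 64.7% of 32851 promoters. The bases before Gimap4 held AGGAAG at chr6:48684491-48684496 with no peak over it. Within footprints extended by 5 bp, ETS letters stood in 16.1% and 12.9% of those of the Gimap window, against 7.02% and 7.22% of all footprints. Without the extension the ETS share was 1.61% and 5.17%, against 2.59% and 2.73%, so replicate 1 was then below all footprints. With 10 bp on each side it was 24.2% and 23.3%, against 11.3% and 11.5%. RUNX core letters, which were picked from these footprints, stood in 8.06% and 6.03% of them, against 2.57% and 2.56%. In 200-bp windows on peaks they stood in 46.2% and 22.7%, against 21.0% and 21.6%, so replicate 2 was at the background. The longer RUNX form TGTGGTT stood in 0 of 13 and 1 of 22 of those windows, against 6.10% and 6.31%. The site before Gimap1 held it at chr6:48732950-48732956, wholly in a common footprint but outside the 200-bp window on that peak. Among footprints, GGGCGG, the letters of KLF and SP factors, stood in 1.61% and 1.72%, against 9.66% and 9.37%. CCACCC, another form of KLF letters, stood in 6.45% and 6.03%, against 4.02% and 4.18%. TGTGGTT overlaps the RUNX core given above. CAGGTG was searched as a site of E proteins such as those that act in thymocytes, and CAGCTG as their other common site. CTTTGA followed by A or T was searched for TCF7 and LEF1, and AGATAA for the GATA family. GGGANTTCC was searched for NF-kB, and TGANTCA with C or G in the middle for AP-1. TGGGAA was searched for RBPJ, the nuclear partner of Notch, and TGTTTAC for the FOXO family, and CTCF letters are given here by their name alone. TGACGTCA was searched as the cyclic AMP response element. A pair of GAAA separated by any 2 bases was searched as the interferon response element. Each of these stood in 0 to 3 footprints of the window in either library. TGTGGTT stood in 1.61% and 1.72%, against 0.624% and 0.634% of all footprints. TCF7 and LEF1 letters stood in 1.61% and 2.59%, against 0.542% and 0.626%. Interferon response letters stood in 1.61% and 0.862%, against 0.133% and 0.14%. CTCF letters, at 3.23% and 2.59%, were near the 3.08% and 2.35% of all. CAGCTG, at 1.61% and 1.72%, was near the 1.66% and 1.81% of all. CAGGTG stood in 3.23% and 1.72%, against 2.36% and 2.27%. RBPJ letters stood in 0% and 2.59%, against 1.64% in each library. The others stood in no footprint. Many of these windows are the same sites seen in both libraries, so the 2 shares are not independent.

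The observed over expected CpG ratio of the RefSeq promoters of the Gimap genes ran from 0.104 at Gimap7 (percentile 13.9 of all promoters) to 0.325 at Gimap9 (percentile 44.7), all under the median of 0.384. Gimap6 at percentile 40.3, Gimap1 at 36.7 and Gimap4 at 36.1 were also closer to the middle. By count, Gimap9 had 8 CpG, above the median of 7, and the others had 2 to 4. The 11 shared sites showed no alignment to one another at an e-value of 0.001, and 98.6% to 100% of the 32-base windows in each occur once in the genome.

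Genes that work with GIMAP proteins or act in cell survival had a promoter peak in both libraries at 10 of 10, with a median signal of 7.12. Over all protein-coding genes the share was 53.5% and the median signal of the open genes 5.59. The 3 highest were Bcl2l1, an inhibitor of cell death, with 19.4 and 18.8 in replicates 1 and 2, Gsk3b with 15.3 and 19.2, and Bcl2l11, which promotes cell death, with 12.8 and 10.04. Of the genes of mature T cell quiescence and exit from the thymus, 9 of 9 had one, with a median of 4.25. Tsc1 was the highest there by mean signal, with 8.40 and 7.57. The transcription factor Klf2 followed with 7.75 in each library, which was above Tsc1 in replicate 2. Next was Ccr7, a receptor for exit and homing, with 5.19 and 5.98. Interferon-inducible GTPases, which belong to other families of GTPases in immunity, had one at 9 of 13, not far from the share over all genes, with a median of 2.52. Some of the 9 had identical signals in a library, so the same peak may be counted for more than 1 gene. Gbp3 had 6.53 and 5.04, Irgm2 5.25 and 5.60, and Igtp 5.002 and 4.87, while Iigp1 and Gbp6 had none in either library.

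Against the same 53.5% of all protein-coding genes, markers of thymocytes had a promoter peak in both libraries at 9 of 10, and the exception, Cd4, had one in replicate 2 only. Markers of other cells of the tissue had one at 0 of 6 for B cells, 3 of 6 for endothelium, which is near the share over all genes, 1 of 5 for natural killer cells and 0 of 5 for myeloid cells. Thymic epithelium had 2 of 6 and fibroblasts and adipocytes 2 of 6. In bulk tissue, fewer cells of a type and less accessibility per cell cannot be told apart, so the cells in which each Gimap site is open are not given by these data.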

How the data were processed

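DNase-seq files of 2 thymus libraries were used. Per the file headers and notes, all files are on mm10 and were made per library; the sources used here name no aligner, peak caller or threshold. The authors deposited 1 signal per peak on a scale they do not state, and it was used unchanged. The q-value of each base run was deposited by the authors and stayed under 0.05. Footprints carry a constant, so only their positions were used.

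Genes came from the GENCODE vM21 basic annotation and sequence from the GRCm38 assembly, whose 21 chromosomes held every interval; promoter sequences came from RefSeq on that build. Overlaps needed 1 bp. Means ± SD cover 2 libraries. Peaks were named by gene for all 8 members, and in the lists of GIMAP partners, T cell quiescence genes and interferon-inducible GTPases the 3 highest and up to 3 without a peak; cell type markers are given by count. The 15 sets of motif letters and 2 wider ones were matched on both strands. The members and lists were chosen with earlier results of these data known. Python 3.11.15, pandas 2.3.3, numpy 2.4.6 and blastn 2.17.0 were used, and the overlap, pairing and motif steps were tested on simulated data. Alternatives were the promoter window, the peak list, the stronger 50% of peaks, the start sites, the flank, the overlap, the centring, the footprint extension and leaving out each library. The motif matches in sites with wider letters and the stretches at Gimap5 were added after the data had been seen.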

Additional observations from a re-analysis of the deposited data

How the results depend on the processing

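No paired analysis was possible because there is 1 group. The number of Gimap genes with a promoter peak in both libraries was 5 with a 500-bp window, the stronger 50% of peaks or the most upstream start site, 6 with a 2500-bp window and 7 in the longer list. It was 5 to 6 from single libraries. The gene added by the 2500-bp window was Gimap3. The median promoter signal stayed at 4.37 under the other windows, list and start sites, ran from 3.77 to 4.73 in single libraries and became 2.87 when divided by each library's median signal, a change of unit. Peaks per 100 kb, 10.7 on average, were 20.2 in the longer list, 7.03 among the stronger 50% of peaks, 12.1 without the flank, 8.86 with peaks within 500 bp joined, and 7.95 to 13.4 in single libraries, so replicate 2 alone gives over 1.5 times the density of replicate 1. The share of peaks overlapping the other library, 67.3% on average, ran from 63.6% to 78.0%, and that of footprints, 47.4%, from 45.7% to 58.4%. The median log2 ratio of 0.34 was 0.16 without centring and 0.31 in the longer list. ETS letters stood in 14.5% of footprints on average, in 3.39% without extension and in 23.7% with 10 bp on each side. Sequencing depth was not given, which limits how peak numbers can be compared between libraries.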
